A study of Drosophila melanogaster with 36 samples.

Results

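Citric acid cycle enzymes were followed as a set of 9 named genes through the RNA-Seq of Drosophila S3 cells, and 8 of the 9 could be matched by FlyBase symbol or synonym to a row among the 17142 genes of the count data. These were kdn, Acon, l(1)G0156, Nc73EF, CG5214, skap, Scsalpha and Mdh2. The named fumarase gene, l(1)G0255, was not matched and was not analysed here. S3 is a cell line from Drosophila embryos that stores lipid droplets when it is fed oleic acid (OA). Its libraries held hemocyte markers, with a median of 609 FPKM for Pxn and 135 FPKM for srp, whereas the muscle and fat body markers had a median under 1 FPKM and the hemocyte marker NimC1 one of 0.113 FPKM. The medians of the neuron markers were 3.91 FPKM for elav, 1.62 FPKM for brp and 0.132 FPKM for nSyb. The germline marker bam had a median of 0.268 FPKM, and the germline markers vas and nos were not matched. FPKM scales mapped fragments by the length of the transcript and by the depth of the library.

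The 36 libraries fell into 10 groups, all harvested after 4 h. OA-fed cells with 0.1% DMSO and 200 µM OA received 1 µM of an active lipid storage inhibitor, or of an inactive relative with the same core. The tetrahydroindazoles were THI-4 (active CT1) and THI-68 (inactive CT1), the thienopyrroles TPE-69 (active CT2) and TPE-67 (inactive CT2), and the arylureido compounds AU-6 (active CT3) and AU-73 (inactive CT3), where CT stands for chemotype. Vehicle OA cells received the same OA and DMSO without a derivative, and vehicle noOA cells received DMSO alone. These 8 groups had 3 libraries each. OA cells and noOA cells, with and without 200 µM OA, received no DMSO and had 6 libraries each. Nothing in the labels states that the libraries of a group came from separate cultures, so the p-values measure the spread between these libraries, which may be technical.

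The citric acid cycle oxidizes the acetyl groups made from pyruvate, fatty acids and amino acids, and it runs in the mitochondrial matrix. Citrate synthase opens it, aconitase, isocitrate dehydrogenase and the oxoglutarate dehydrogenase complex lead to succinyl-CoA, and succinyl-CoA ligase, succinate dehydrogenase, fumarase and malate dehydrogenase lead back to oxaloacetate. Succinyl-CoA ligase is made of an alpha subunit, shared by both forms of the enzyme, and a beta subunit that makes it specific for ADP or for GDP. It is the step of the cycle that makes a nucleoside triphosphate directly.

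The libraries held between 1208200 and 9548314 counts (median 5005547), of which 34.7% to 51.5% lay on a single 18S rRNA row. The 8 enzymes had at least 127 counts in every library. A pair of libraries with the lowest totals, vehicle OA replicate 3 (1208200 counts) and vehicle noOA replicate 1 (1314250 counts), was left out of the fits, and their values are given below with the others. In such bulk samples, fewer expressing cells and less RNA per cell cannot be told apart.

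All 8 enzymes were well expressed. The medians over the 36 libraries were 230.5 FPKM for kdn (citrate synthase), 181 FPKM for skap (the ADP-forming beta subunit of succinyl-CoA ligase), 142.3 FPKM each for Scsalpha (its alpha subunit) and Mdh2 (mitochondrial malate dehydrogenase), 123 FPKM for Acon (mitochondrial aconitase), 88.2 FPKM for l(1)G0156 (the alpha subunit of NAD-dependent isocitrate dehydrogenase), 56.6 FPKM for CG5214 (the E2 subunit of oxoglutarate dehydrogenase) and 39.7 FPKM for Nc73EF (its E1 subunit). The highest, kdn, ranked 288 and the lowest, Nc73EF, ranked 1790 among the 8053 genes with a median of at least 1 FPKM. These levels are given as medians because the FPKM scale differed between libraries. Over the same 8053 genes the median FPKM was 4.99 to 7.92 in the 3 libraries with the lowest totals, against 12.3 to 17.6 in the other 33.

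Across conditions, the 8 enzymes differed in how far their levels ranged. The highest group mean exceeded the lowest by 1.90-fold for skap and by 1.99-fold for Scsalpha, in CPM, a count scaled to library size, here by TMM over all 36 libraries. For the other 6 this ratio lay between 1.07 (kdn) and 1.25 (CG5214), with a median coefficient of variation within groups of 3.33% (kdn) to 6.08% (Mdh2). Over 20 comparisons the 8 enzymes gave 160 tests, of which 19 were called at an adjusted p under 0.05 by edgeR's quasi-likelihood test with Benjamini-Hochberg adjustment over all genes. All 19 calls were rises, and all 19 were of skap or Scsalpha. In single comparisons, the share of all genes called higher ranged from 0% (such as inactive CT1 against vehicle OA) to 8.42% (active against inactive CT1).

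The comparison of active derivatives with vehicle OA asked how OA-fed cells respond to the lipid storage inhibitors. With each of the 3 active derivatives, both subunits of the ADP-forming succinyl-CoA ligase rose, and the other 6 enzymes did not pass the test. Active CT1 gave a rise of 1.63-fold for both genes, active CT2 one of 1.29-fold (skap) and 1.35-fold (Scsalpha), and active CT3 one of 1.43-fold (skap) and 1.57-fold (Scsalpha).

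For skap, the CPM values were 391, 373 and 376 in active CT1 libraries, 308, 298 and 288 in active CT2 and 319, 346 and 335 in active CT3 ones, against 229.6, 237 and 236 in vehicle OA. Every library of the 3 active groups lay above every vehicle OA library, including the one left out of the fits. The edgeR log2 fold change was 0.70 for active CT1 (SE 0.0654, adjusted p = 3.58e-11), 0.36 for active CT2 (SE 0.0658, adjusted p = 2.72e-04) and 0.52 for active CT3 (SE 0.0661, adjusted p = 1.67e-07).

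For Scsalpha, the CPM values were 293, 283 and 268 in active CT1 libraries, 241, 232 and 221 in active CT2 and 283, 259 and 273 in active CT3 ones, against 185, 163 and 184 in vehicle OA. Here too no library of an active group overlapped with vehicle OA. The edgeR log2 fold change was 0.70 for active CT1 (SE 0.0694, adjusted p = 1.78e-10), 0.43 for active CT2 (SE 0.0701, adjusted p = 4.54e-05) and 0.65 for active CT3 (SE 0.0703, adjusted p = 3.49e-09). These comparisons, and those of the inactive derivatives below, share the same vehicle OA libraries. The share of all genes whose libraries separated without overlap was not counted, here or in the comparisons below.

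**Figure D1:**
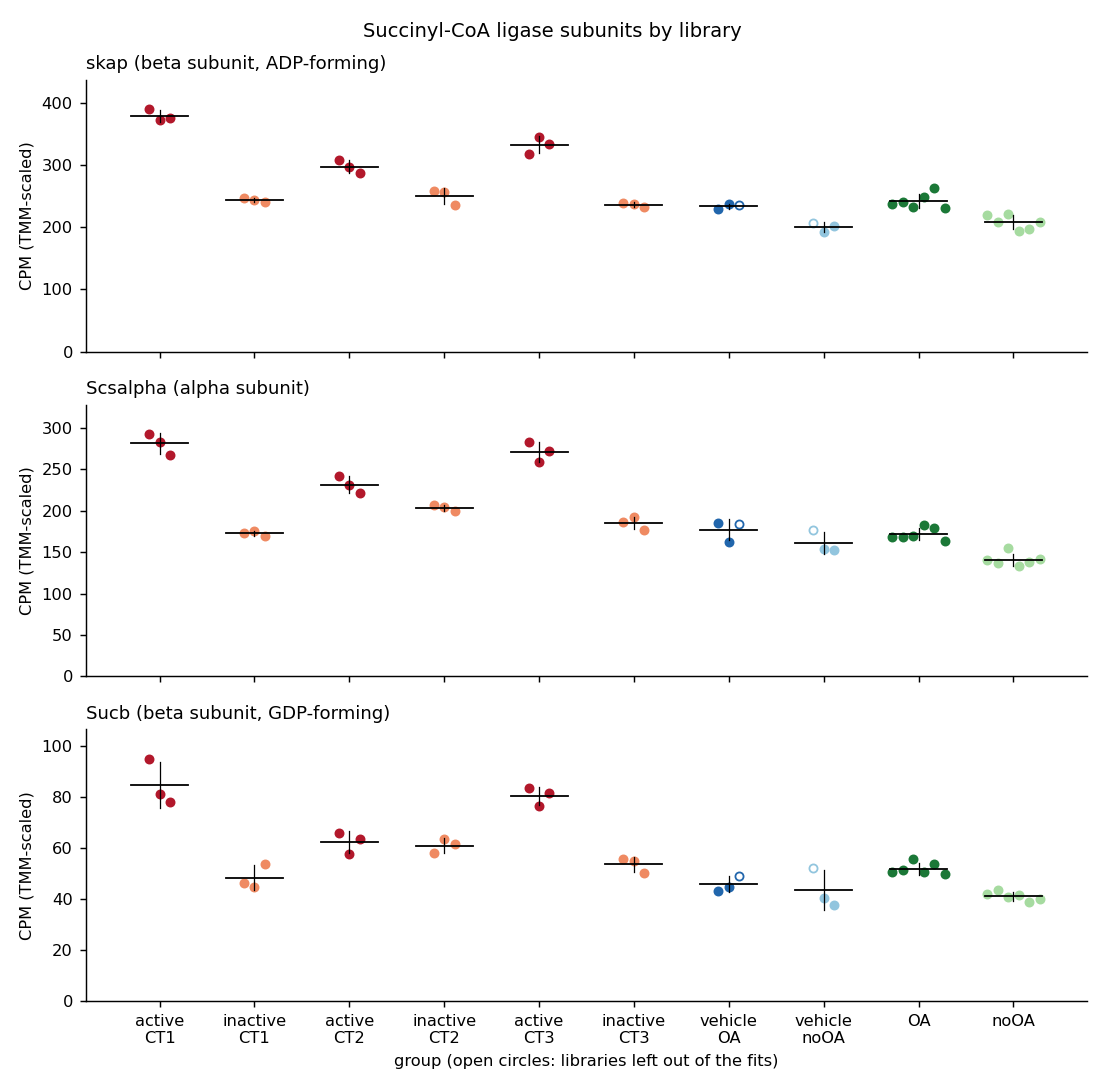
CPM (TMM-scaled, linear axis from 0) of skap, Scsalpha and Sucb, the GDP-forming beta subunit, in each library of the 10 groups. Points are libraries, horizontal lines group means and vertical lines the SD, and open circles mark the libraries left out of the fits; the active CT1 libraries of skap, at 373 to 391, are the highest of all 36.

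Of the 8 enzymes, 2 were called higher with active CT1, where 7.48% of the 7522 genes tested were called higher and 4.64% lower. With active CT2, 2 of 8 were called higher against 1.97% of all genes, and 0.0665% of all genes were called lower. With active CT3, 2 of 8 were called higher against 4.00% of all genes, and 0.864% were called lower. The median log2 fold change of the 8 enzymes was 0.08 for active CT1, 0.04 for active CT2 and 0.03 for active CT3. That of all genes tested was -0.01 for active CT1. Leaving out vehicle OA replicate 2 ended the call of Scsalpha with active CT2 (log2 fold change 0.34, edgeR adjusted p = 0.0625). In limma on log2(FPKM + 1), 0 of 8 enzymes were called with active CT2, with 0.44 for skap and 0.46 for Scsalpha on the log2(FPKM + 1) scale, and 2 of 8 once each library was centred on its median.

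The 6 other enzymes stayed close to vehicle OA. Active CT1 gave log2 fold changes between -0.07 (Mdh2) and 0.14 (CG5214), active CT2 between -0.04 (CG5214) and 0.07 (l(1)G0156), and active CT3 between -0.02 (Nc73EF) and 0.10 (l(1)G0156). The 95% intervals of all 6 lay within -0.23 (Mdh2) and 0.31 (CG5214) for active CT1, so that a change beyond 1.24-fold upwards or to less than 0.851 of the vehicle OA level was outside every one of these intervals. With active CT2 the outer bounds were -0.21 and 0.23, and with active CT3 -0.17 and 0.26. The upper bounds of these 6 enzymes were below the lower bounds of skap and Scsalpha with active CT1, which were 0.57 and 0.56.

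**Figure D2:**
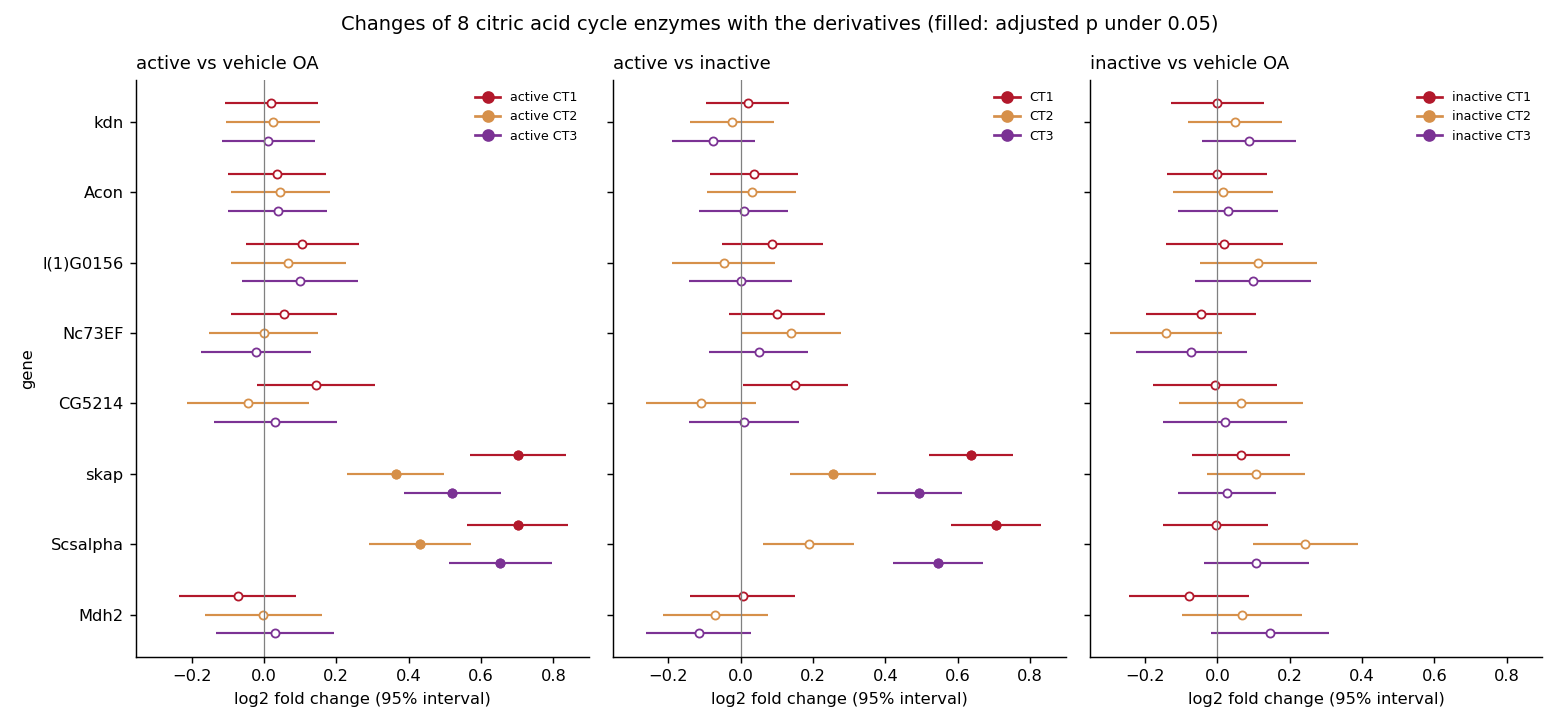
Log2 fold changes of the 8 enzymes with 95% intervals, for active derivatives against vehicle OA (left), active against inactive derivatives (middle) and inactive derivatives against vehicle OA (right); filled points have an adjusted p under 0.05 in edgeR. In the left panel skap and Scsalpha lie between 0.36 and 0.70 and the other 6 enzymes between -0.07 and 0.14.

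Citrate synthase, kdn, was the steadiest of the 8. It had 547, 553 and 573 CPM in active CT1 libraries, 564, 533 and 566 CPM in active CT2 and 554, 536 and 564 CPM in active CT3 ones, against 576, 525 and 552 CPM in vehicle OA. Acon, which converts citrate to isocitrate, had 316, 317 and 350.4 CPM in active CT1 libraries, 337, 307 and 336 CPM in active CT2 and 337, 317 and 326 CPM in active CT3 ones, against 336, 303 and 302 CPM in vehicle OA. The libraries of the active groups overlapped with vehicle OA for both genes.

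The l(1)G0156 gene had 164, 148 and 156.5 CPM in active CT1 libraries, 159, 138 and 155 CPM in active CT2 and 165, 148 and 152 CPM in active CT3 ones, against 141, 149 and 123 CPM in vehicle OA. Nc73EF, the E1 subunit that binds oxoglutarate, had 139.9, 149.6 and 152 CPM in active CT1 libraries, 147, 129.5 and 144 CPM in active CT2 and 142, 143 and 133 CPM in active CT3 ones, against 140.4, 143 and 133 CPM in vehicle OA. The groups overlapped for both.

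CG5214, the E2 subunit that passes on the succinyl group to coenzyme A, had 110.4, 110.5 and 122 CPM in active CT1 libraries, 106, 87.6 and 103 CPM in active CT2 and 110.5, 97.0 and 107 CPM in active CT3 ones, against 105, 102 and 99.3 CPM in vehicle OA. The active CT1 libraries lay above those of vehicle OA, but the log2 fold change of 0.14 (SE 0.0809) did not pass the test (edgeR adjusted p = 0.300). Mdh2, which makes oxaloacetate from malate, had 139.6, 150.03 and 154 CPM in active CT1 libraries, 151, 146 and 165 CPM in active CT2 and 166, 147 and 160.3 CPM in active CT3 ones, against 149.7, 160.3 and 164 CPM in vehicle OA. Its groups overlapped.

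**Figure D3:**
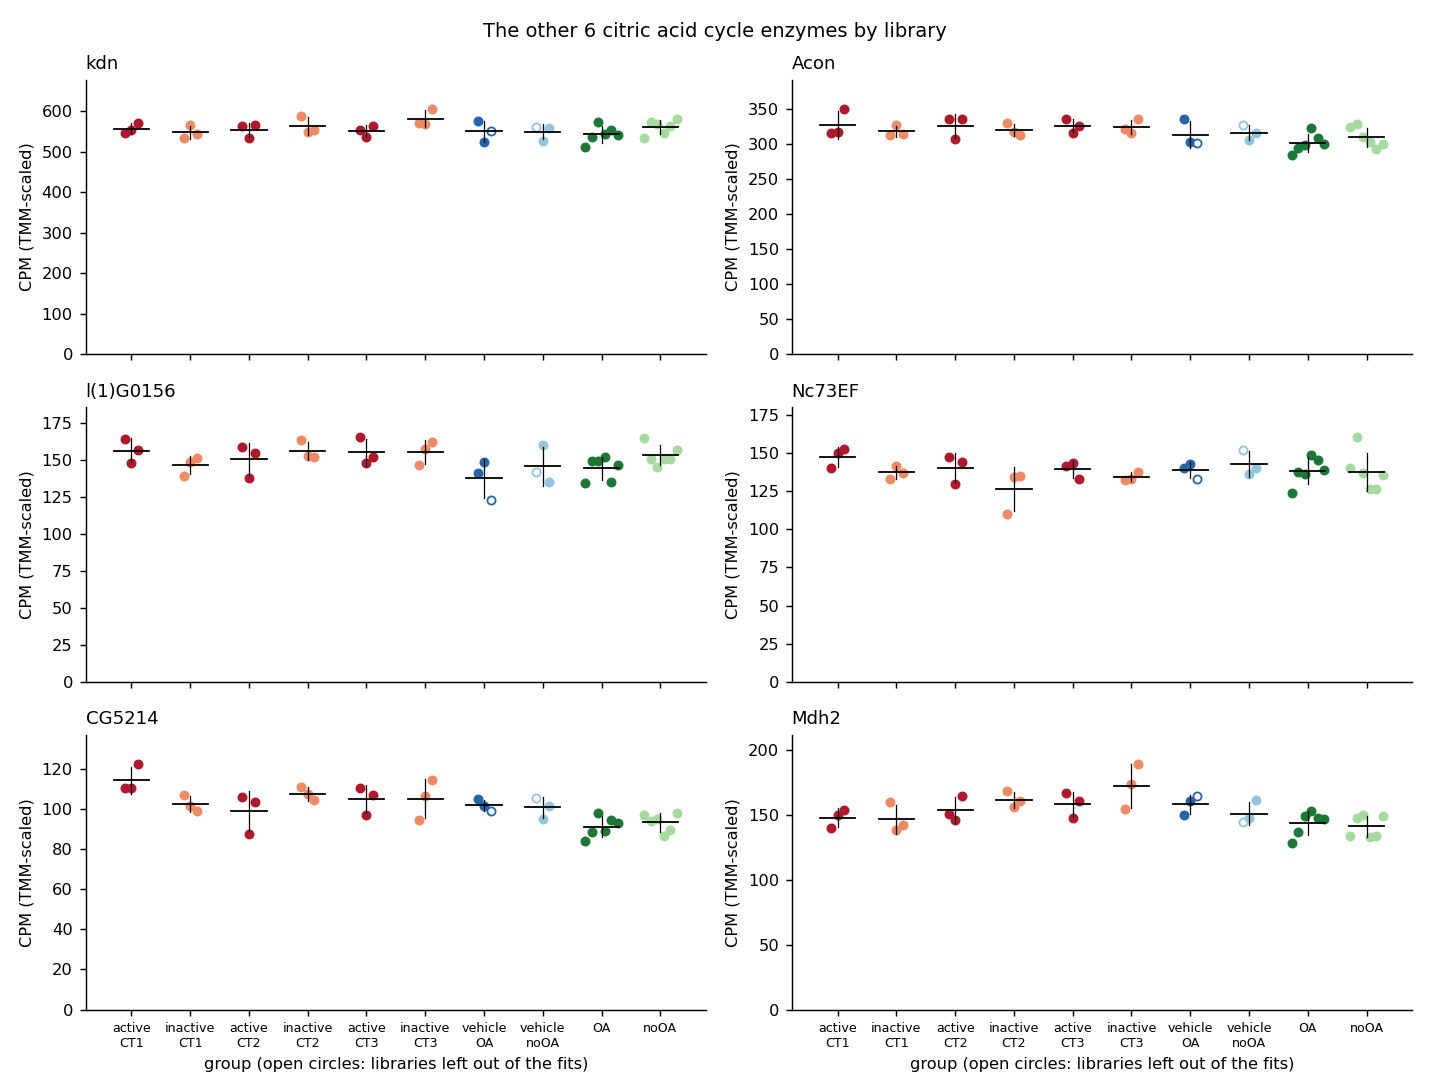
CPM (TMM-scaled, linear axes from 0) of kdn, Acon, l(1)G0156, Nc73EF, CG5214 and Mdh2 in each library of the 10 groups. Points are libraries, horizontal lines group means, vertical lines the SD, and open circles the libraries left out of the fits; the ratio of the highest to the lowest group mean is 1.07 for kdn and 1.25 for CG5214.

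Inactive derivatives were compared with vehicle OA as controls for the cores of the active molecules. Neither subunit of the ADP-forming ligase passed the test with any of them. Sucb, the GDP-forming beta subunit outside the set, was called with inactive CT2, as given below. The skap CPM values were 247, 245 and 241 with inactive CT1, 259.5, 257 and 236 with inactive CT2, and 239.4, 238 and 232 with inactive CT3, against 229.6, 237 and 236 in vehicle OA. Its inactive CT1 libraries lay above all vehicle OA libraries, though the edgeR adjusted p was 0.973. The log2 fold changes of skap were 0.07, 0.11 and 0.03, with 95% intervals of -0.07 to 0.20 (inactive CT1), -0.03 to 0.24 (inactive CT2) and -0.11 to 0.16 (inactive CT3).

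Scsalpha had 173, 176 and 169 CPM with inactive CT1, 207, 204 and 199.99 CPM with inactive CT2, and 186, 192 and 177 CPM with inactive CT3, against 185, 163 and 184 CPM in vehicle OA. The inactive CT2 libraries lay above all vehicle OA libraries, as they did for l(1)G0156, which was not called (edgeR adjusted p = 0.660). The log2 fold change of Scsalpha with inactive CT2 was 0.24, with a 95% interval of 0.10 to 0.39, and its adjusted p was 0.109 by edgeR. The intervals with inactive CT1, -0.15 to 0.14, and with inactive CT3, -0.04 to 0.25, held 0. edgeR called 0 of the 8 enzymes with each inactive derivative, and so did DESeq2. At an unadjusted p under 0.05 edgeR had 1 of the 8 with inactive CT2, which was Scsalpha, and 0 with inactive CT1 and inactive CT3. Of the 7522 genes tested, 793 had such a p with inactive CT2, 364 with inactive CT1 and 571 with inactive CT3. Of all genes, 0% were called higher with inactive CT1, 0.585% with inactive CT2 and 0.0133% with inactive CT3.

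Active and inactive derivatives of a core were compared at the same dose and time. With CT1, skap averaged 380.3 ± 9.53 CPM with the active derivative and 244 ± 2.93 CPM with the inactive one (SD, n = 3 each). The log2 fold change was 0.64 (95% interval 0.52 to 0.75, edgeR adjusted p = 1.15e-11). Scsalpha averaged 281 ± 12.6 CPM with active CT1 and 173 ± 3.44 CPM with inactive CT1 (SD, n = 3 each), with a log2 fold change of 0.71 (0.58 to 0.83, edgeR adjusted p = 3.96e-12). In this comparison 2 of the 8 enzymes were called higher, against 8.42% of all genes.

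With CT3, skap averaged 333 ± 13.9 CPM with the active derivative and 237 ± 3.79 CPM with the inactive one (SD, n = 3 each), with a log2 fold change of 0.49 (0.38 to 0.61, edgeR adjusted p = 3.99e-08). Scsalpha averaged 271 ± 11.9 CPM with active CT3 and 185 ± 7.43 CPM with inactive CT3 (SD, n = 3 each), with a log2 fold change of 0.55 (0.42 to 0.67, edgeR adjusted p = 1.44e-08). Again 2 of the 8 enzymes were called higher, against 3.12% of all genes. In limma on log2(FPKM + 1) only skap was called.

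The CT2 pair differed less. The skap mean was 298 ± 9.93 CPM with active CT2 and 251 ± 13.0 CPM with inactive CT2 (SD, n = 3 each), with a log2 fold change of 0.26 (0.14 to 0.38, edgeR adjusted p = 0.00942). The Scsalpha mean was 231 ± 10.1 CPM with active CT2 and 204 ± 3.40 CPM with inactive CT2 (SD, n = 3 each), and its log2 fold change of 0.19 (0.06 to 0.31) did not pass the test (edgeR adjusted p = 0.0980), although no libraries overlapped. So 1 of the 8 enzymes was called higher, against 2.05% of all genes. The call of skap was lost without active CT2 replicate 1 (log2 fold change 0.23, edgeR adjusted p = 0.0570), without inactive CT2 replicate 3 (0.21, adjusted p = 0.124), in a fit of the groups compared alone (adjusted p = 0.118) and in limma on log2(FPKM + 1) (adjusted p = 0.141).

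Among the other 6 enzymes, 2 gave an unadjusted p under 0.05 in an active against inactive comparison. CG5214 had a log2 fold change of 0.15 with CT1 (edgeR adjusted p = 0.191), and Nc73EF one of 0.14 with CT2 (edgeR adjusted p = 0.306). Of the 7522 genes tested, 1740 had an unadjusted p under 0.05 with CT1, 1167 with CT2 and 1013 with CT3. The 3 active CT3 libraries of kdn lay below the 3 inactive CT3 ones, but its log2 fold change of -0.08 (SE 0.0572) did not pass the test. The outer bounds of the 95% intervals over these 6 enzymes were -0.14 and 0.30 for CT1, -0.26 and 0.28 for CT2, and -0.26 and 0.19 for CT3. Over all 20 comparisons the 6 enzymes gave 120 edgeR tests, with 0 called, 5 at an unadjusted p under 0.05 and a lowest adjusted p of 0.0836, for CG5214 in active CT1 against active CT2. Of all genes tested, those at an unadjusted p under 0.05 ranged from 290 of 7546 to 1935 of 7546 per comparison. The lowest was for the OA effect with against without DMSO, the highest for OA against noOA.

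The 3 active derivatives, which differ in their cores, were then compared with each other at the shared dose of 1 µM. Active CT1 gave higher values than active CT2 for both subunits, with a log2 difference of 0.34 for skap (95% interval 0.23 to 0.45, edgeR adjusted p = 2.23e-05) and 0.27 for Scsalpha (0.15 to 0.39, edgeR adjusted p = 0.00107). These were 2 of the 8 enzymes, and 5.48% of all genes were called higher. Between active CT1 and active CT3, 0 of the 8 were called by edgeR. Of the 7522 genes tested, 224 (2.98%) were called higher and 125 lower. The interval of the difference was 0.07 to 0.30 for skap, with an adjusted p of 0.0508, and -0.07 to 0.17 for Scsalpha. At an unadjusted p under 0.05 edgeR had 1 of the 8 in this comparison and 1137 of the 7522 genes tested. DESeq2 called 1 of the 8.

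Between active CT3 and active CT2, 0 of the 8 were called by edgeR. Of the 7522 genes tested, 32 (0.425%) were called higher and 3 lower. The intervals were 0.04 to 0.27 for skap and 0.10 to 0.34 for Scsalpha. At an unadjusted p under 0.05 edgeR had 2 of the 8 and 774 of the 7522 genes tested. DESeq2 called 1 of the 8. By group mean the order was therefore active CT1, active CT3 and active CT2 for both subunits, and only the gap between active CT1 and active CT2 passed the test. In limma on log2(FPKM + 1) that gap was not called for either subunit, with adjusted p of 0.0969 for skap and 0.195 for Scsalpha, and after centring of each library both were called.

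The size of the active against inactive difference was itself compared between the cores, by an interaction term in the edgeR fit. It was larger for CT1 than for CT2, by 0.38 for skap (SE 0.0821, adjusted p = 0.00141) and by 0.52 for Scsalpha (SE 0.0870, adjusted p = 4.43e-05), on the log2 scale. That made 2 of 8 enzymes called higher, against 4.44% of all genes. In limma on log2(FPKM + 1) neither was called (0.37, adjusted p = 0.410 for skap, and 0.58, adjusted p = 0.164 for Scsalpha), and both were called after centring of each library. It was larger for CT3 than for CT2 by 0.36 for Scsalpha (SE 0.0875, adjusted p = 0.0290) and by 0.24 for skap (SE 0.0829, adjusted p = 0.222). Here 1 of 8 enzymes was called higher, against 0.572% of all genes. The call of Scsalpha for CT3 against CT2 was lost in a fit of the groups compared alone (0.35, adjusted p = 0.0797), in limma on log2(FPKM + 1) (0.19, adjusted p = 0.931) and after centring of each library (0.29, adjusted p = 0.272). It was also lost in 7 of the fits that left out a library, which were those without active CT2 replicate 2 (adjusted p = 0.0674) or replicate 3 (0.119), without inactive CT2 replicate 1 (0.0604), without active CT3 replicate 1 (0.0944) or replicate 3 (0.0799), and without inactive CT3 replicate 1 (0.0713) or replicate 3 (0.0917).

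Between CT1 and CT3 the interaction was 0.14 for skap (95% interval -0.02 to 0.31) and 0.16 for Scsalpha (-0.02 to 0.34). edgeR and DESeq2 called 0 of the 8 enzymes there, and edgeR called 1.34% of all genes higher. At an unadjusted p under 0.05 edgeR had 0 of the 8 and 830 of the 7522 genes tested. The inactive CT2 group enters each interaction with CT2, and its Scsalpha libraries stood above those of vehicle OA, as given above.

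OA without a derivative also went with higher succinyl-CoA ligase values. The paper gave OA as a complex with BSA in Tris buffer, and the labels do not say whether noOA cells received this carrier. An effect of the carrier was not tested. In OA cells without DMSO, skap ranged from 231 to 263 CPM (median 239.5) against 194 to 221 CPM (median 209) in noOA cells, and the 6 libraries of each group did not overlap. Its log2 fold change was 0.22 (SE 0.0454, edgeR adjusted p = 6.61e-04). Scsalpha ranged from 164 to 182 CPM (median 169) in OA cells against 133 to 154 CPM (median 139.7) in noOA cells, again without overlap. Its log2 fold change was 0.28 (SE 0.0462, edgeR adjusted p = 3.69e-05). So 2 of the 8 enzymes were called higher, against 6.68% of all genes, and 0 were called lower, against 6.92%. In limma on log2(FPKM + 1) neither was called, and both were called after centring of each library.

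With DMSO the OA difference was of like size. The skap CPM values were 229.6, 237 and 236 in vehicle OA, against 208, 192 and 202 in vehicle noOA, without overlap. The log2 fold change of skap was 0.24 (95% interval 0.10 to 0.39, edgeR adjusted p = 0.0353). Scsalpha had 185, 163 and 184 CPM in vehicle OA, against 177, 154 and 153 CPM in vehicle noOA, and its log2 fold change of 0.17 (0.02 to 0.33) did not pass the test (edgeR adjusted p = 0.204). Thus 1 of the 8 enzymes was called higher, against 2.98% of all genes, and 0 lower, against 3.47%. The skap call was lost without any one of the 4 libraries, at adjusted p of 0.109 and 0.235 without vehicle OA replicates 1 and 2, and 0.255 and 0.102 without vehicle noOA replicates 2 and 3.

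The difference between the OA effects with and without DMSO was 0.02 for skap (95% interval -0.17 to 0.21) and -0.11 for Scsalpha (-0.30 to 0.09). edgeR called 0 of the 8 enzymes for this interaction, and 0% of all genes were called higher. At an unadjusted p under 0.05 it had 0 of the 8 and 290 of the 7546 genes tested. DMSO itself, in vehicle OA against OA cells, gave 0 calls among the 8 enzymes and 0% of all genes called higher. At an unadjusted p under 0.05 edgeR had 1 of the 8 (CG5214, log2 fold change 0.18) and 391 of the 7546 genes tested. In vehicle noOA against noOA cells, edgeR called 0 of the 8, and 0.0133% of all genes were called higher. At an unadjusted p under 0.05 it had 0 of the 8 and 479 of the 7546 genes tested. The log2 fold change with DMSO was -0.06 for skap and 0.01 for Scsalpha in OA-fed cells, with the other 6 between 0.00 and 0.18, and -0.08 for skap and 0.11 for Scsalpha in unfed cells, with the other 6 between -0.05 and 0.12. DESeq2 called 0 of the 8 in each of these 3 comparisons. With OA the other 6 enzymes had log2 fold changes between -0.08 and 0.01 without DMSO and between -0.03 and 0.06 with it.

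**Figure D4:**
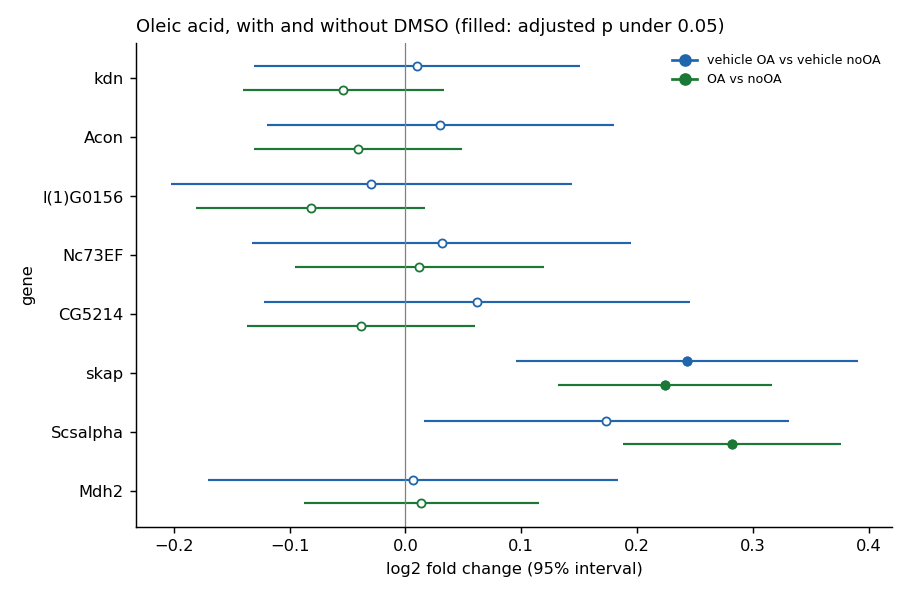
Log2 fold changes of the 8 enzymes with 95% intervals for vehicle OA against vehicle noOA and for OA against noOA; filled points have an adjusted p under 0.05 in edgeR. The filled points are skap in both comparisons (0.24 and 0.22) and Scsalpha in OA against noOA (0.28).

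The 2 ligase subunits followed each other across conditions. Over the 10 group means of log2 CPM, Pearson's r between skap and Scsalpha was 0.96, while the other pairs among the 8 enzymes lay between -0.44 (Nc73EF and Mdh2) and 0.79 (Acon and CG5214). These 10 points share the TMM scale, and 7 of them share OA and DMSO. The ratio of skap to Scsalpha within a library was also taken on the FPKM scale. Its median was 1.25 for active CT1, 1.28 for active CT2 and 1.23 for active CT3. For the inactive derivatives it was 1.37 (CT1), 1.22 (CT2) and 1.205 (CT3), so a ratio below vehicle OA was not limited to active ones. The median was 1.44 in vehicle OA, where the ratio ranged from 1.16 to 1.88, and 1.35 in vehicle noOA. The highest ratios in vehicle OA (1.88) and vehicle noOA (1.61) were those of the libraries left out of the fits.

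Among genes outside the set, 5 had the pattern most like the mean of the 8 enzymes over the 10 group means, by Pearson's r of centred log2 CPM. They were Echs1 (r = 0.99), Gal (0.99), scu (0.99), sturkopf (0.99) and PMP34 (0.99). Echs1 is a mitochondrial enoyl-CoA hydratase, Gal a beta-galactosidase, scu a mitochondrial hydroxyacyl-CoA dehydrogenase, sturkopf a lipid droplet protein and PMP34 a peroxisomal membrane carrier. Their group means spanned 0.76 (Echs1) to 1.26 (PMP34) on the log2 scale. This mean moves mainly with skap and Scsalpha, since the group means of the other 6 enzymes ranged no more than 1.25-fold. Against the mean of skap and Scsalpha alone, a ranking chosen after the values were seen, the leading genes were Aldh-III, an aldehyde dehydrogenase (r = 1.00), CG11309 (0.99), Gtpx (0.99), CG10444 (0.99) and Hmgs, the HMG-CoA synthase (0.99). Both rankings are descriptions over 10 points that share libraries.

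Other subunits and paralogues of the cycle made up a list of 23 genes, of which 10 passed the filter on low counts. Sucb, the GDP-forming beta subunit that pairs with Scsalpha, had 95.02, 81.1 and 78.1 CPM in active CT1 libraries, 65.8, 57.5 and 63.4 CPM in active CT2 and 83.4, 76.6 and 81.5 CPM in active CT3 ones, against 43.2, 44.8 and 49.2 CPM in vehicle OA. Its edgeR log2 fold change was 0.95 for active CT1 (SE 0.0939, adjusted p = 1.89e-10), 0.51 for active CT2 (SE 0.0995, adjusted p = 8.34e-04) and 0.87 for active CT3 (SE 0.0975, adjusted p = 8.62e-09). Sucb was also called with inactive CT2, where it had 57.9, 63.6 and 61.4 CPM and a log2 fold change of 0.48 (edgeR adjusted p = 0.00890).

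With active CT1, 3 of these 10 genes were called higher and 1 lower, against 7.48% and 4.64% of all genes. Besides Sucb, Idh, an NADP-dependent isocitrate dehydrogenase, rose by 0.49 on the log2 scale (edgeR adjusted p = 2.57e-07), and CG7430, the E3 subunit of oxoglutarate dehydrogenase that other dehydrogenase complexes share, rose by 0.23 (adjusted p = 0.0420). CG1544, an oxoglutarate dehydrogenase paralogue, fell by 0.52 on the log2 scale (edgeR adjusted p = 1.65e-04). The succinate dehydrogenase subunits SdhA, SdhB, SdhC and SdhD and the remaining NAD-dependent isocitrate dehydrogenase subunits CG6439 and CG5028 were called in none of the 20 comparisons, with a lowest edgeR adjusted p of 0.128, for SdhD. Their log2 fold changes with active CT1 lay between -0.10 (SdhC) and 0.15 (SdhA). With active CT2, 1 of the 10 genes was called higher (Sucb), against 1.97% of all genes, and with active CT3 2 of the 10 were (Sucb and Idh), against 4.00%. These 6 subunits and CG7430 had log2 fold changes between -0.11 (SdhD) and 0.14 (CG7430) with active CT2 and between -0.09 (SdhC) and 0.17 (CG7430) with active CT3, and none was called.

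The list of entry, exit and shuttle genes held 11 genes, of which 9 were tested. With active CT1, 5 of the 9 were called higher and 0 lower, against 7.48% and 4.64% of all genes. Irp-1B, an iron regulatory protein related to cytosolic aconitase, had the largest difference, 1.17 on the log2 scale (SE 0.0852, edgeR adjusted p = 4.58e-14). CG1516, pyruvate carboxylase, which feeds oxaloacetate into the cycle, rose by 0.96 (SE 0.0820, edgeR adjusted p = 3.42e-12), and Mdh1, the cytosolic malate dehydrogenase, rose by 0.52 (SE 0.0866, edgeR adjusted p = 1.27e-05). Mitochondrial aconitase (Acon) and mitochondrial malate dehydrogenase (Mdh2) were not called in that comparison, with 0.04 and -0.07. With active CT2, 2 of the 9 were called higher, against 1.97% of all genes, and with active CT3 3 of the 9, against 4.00%.

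OA went with a partly different pattern in these lists, although Irp-1B rose with OA as it did with active CT1. In vehicle OA against vehicle noOA, 1 of the 10 other cycle genes was called lower (Idh, log2 fold change -0.27, edgeR adjusted p = 0.0157) and 0 higher, where 3.47% of all genes were called lower and 2.98% higher. Sucb was not called, with 43.2, 44.8 and 49.2 CPM in vehicle OA against 52.3, 40.5 and 37.6 CPM in vehicle noOA. The libraries at 49.2 and 52.3 CPM were left out of the fit, and the fitted ones did not overlap. Without DMSO, Sucb had 49.8 to 55.8 CPM in OA cells against 38.7 to 43.7 CPM in noOA cells, and it was called higher there. The succinate dehydrogenase subunits, CG6439, CG5028 and CG7430 lay between -0.21 (CG7430, edgeR adjusted p = 0.130) and 0.06 (SdhC). Of the 9 entry and exit genes, 3 were called lower and 1 higher. Irp-1B was the higher one (0.51, edgeR adjusted p = 0.00188), and the lower ones were ATPCL, the ATP citrate lyase that makes cytosolic acetyl-CoA (-0.36, adjusted p = 0.00200), the malic enzyme Men-b (-0.38, adjusted p = 0.0163) and Got2, the mitochondrial aspartate aminotransferase (-0.27).

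**Figure D5:**
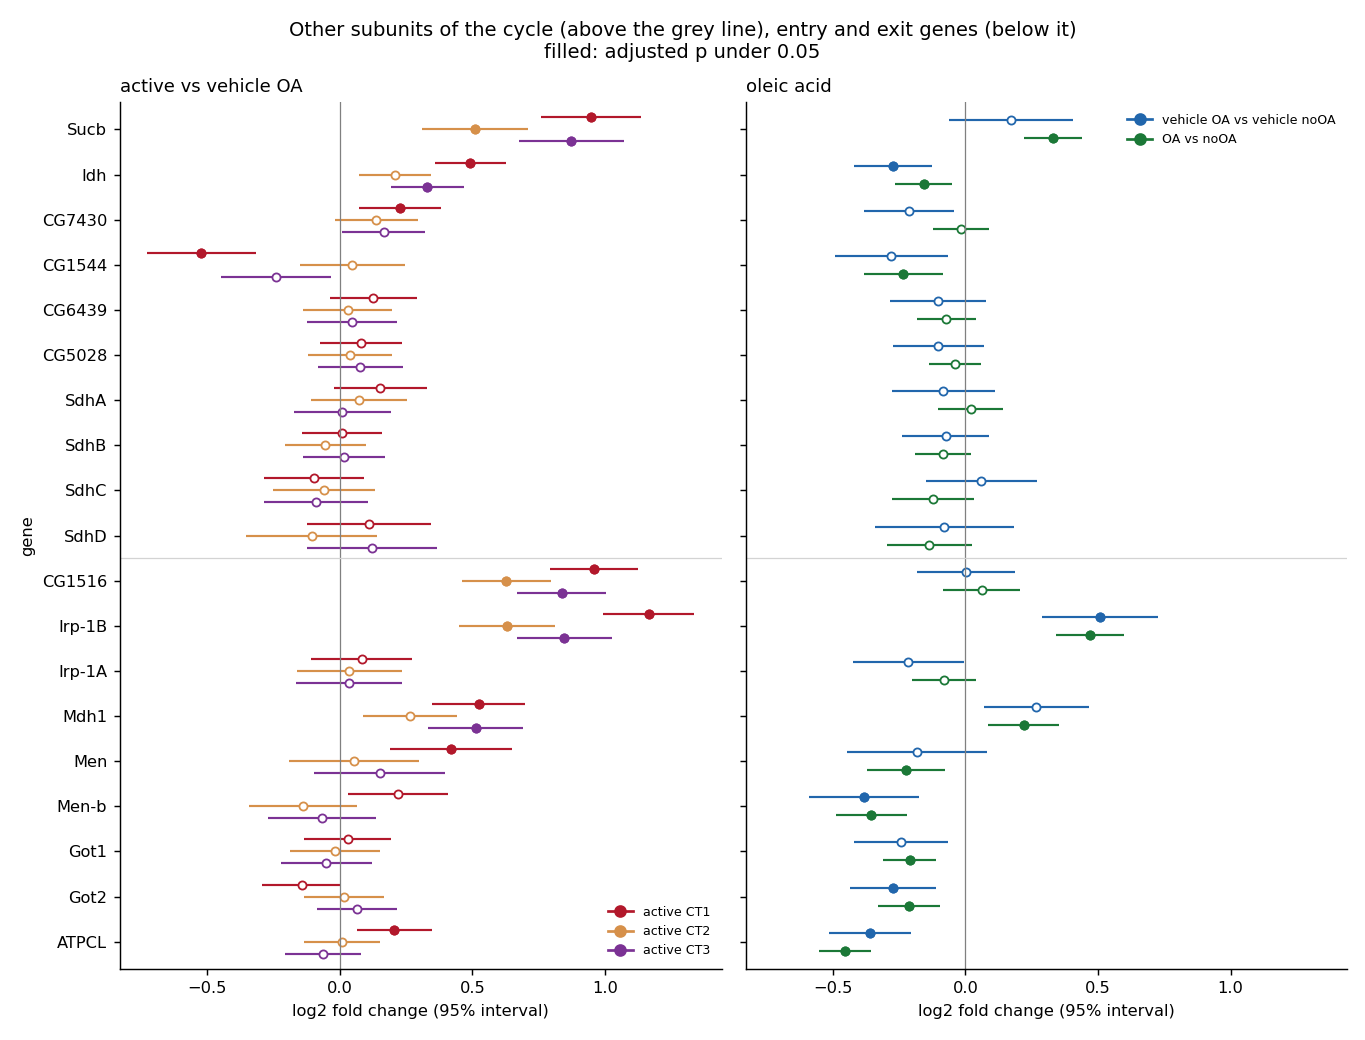
Log2 fold changes with 95% intervals of the 10 other cycle genes (above the grey line) and the 9 entry and exit genes (below it), for active derivatives against vehicle OA (left) and for OA (right); filled points have an adjusted p under 0.05 in edgeR. Sucb lies at 0.95 (CT1), 0.51 (CT2) and 0.87 (CT3), and the succinate dehydrogenase subunits have no filled point.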

How the data were processed

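The authors aligned reads to BDGP R5 with TopHat2 2.0.10 and counted them per gene with HTSeq 0.5.4p1, and these raw counts were deposited without normalization. The deposited FPKM values came from the authors' runs of Cufflinks 2.1.1. The libraries were stranded, and whether the counting used strand is not given in the sources used here. Enzymes were matched by symbol or synonym through RefSeq and FlyBase name tables (8 of 9).

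Counts were tested with edgeR 4.0.16 in R 4.3.3 (TMM factors, filterByExpr by group, quasi-likelihood F test, Benjamini-Hochberg adjustment over all genes of a comparison, adjusted p under 0.05). One fit held 22 libraries with DMSO (7522 genes tested), the other 16 control libraries (7546 genes tested). The vehicle libraries kept were those whose FPKM values matched the study's own table at a relative tolerance of 1e-04. CPM values were scaled by TMM over all 36 libraries. SEs were derived from the F statistic, and 95% intervals from its t quantile. The fits were also run on counts simulated from edgeR's own model with independent libraries. Such data cannot test whether the real libraries are independent.

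Alternatives were DESeq2 1.42.0, RLE factors, omission of the 18S rRNA row, no filter, all 36 libraries, a fit of just the 2 or 4 groups of a comparison, a replicate block, limma 3.58.1 on log2(FPKM + 1) with and without a filter or on log2(FPKM + 0.1), and leaving out each library. After the values were seen, limma on FPKM centred on each library's median was added.

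The enzymes, the lists and the comparisons were chosen with earlier results of these data known. Each comparison covers all 8 matched enzymes, and those that did not pass its test are in part given as counts or ranges. Of the other lists, counts are given, with values for the 3 smallest adjusted p among calls in active CT1 against vehicle OA and in vehicle OA against vehicle noOA. The succinate dehydrogenase, remaining isocitrate dehydrogenase and CG7430 subunits were to be named whether called or not, and are given by value or range for the active derivatives and for OA. The 5 genes most like the enzymes' mean pattern are also named. Any other named gene was picked once its values had been seen. The citrate carrier sea had almost no counts and was left out of the tests.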

Additional observations from a re-analysis of the deposited data

Results flagged for a closer look

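A difference between cores was found for 3 values. The active against inactive difference in the log2 level was larger for CT1 than for CT2 by 0.38 for skap (edgeR adjusted p = 0.00141) and by 0.52 for Scsalpha (adjusted p = 4.43e-05), and larger for CT3 than for CT2 by 0.36 for Scsalpha (adjusted p = 0.0290). In limma on log2(FPKM + 1) none of the 3 was called, and the CT3 against CT2 value was 0.19 (adjusted p = 0.931). That call was also lost in a fit of the groups compared (adjusted p = 0.0797), after centring of each library (0.29, adjusted p = 0.272), and in 7 of 12 fits that left out a library. These were 3 of 32 interaction values tested for the 8 enzymes, including the OA effect with against without DMSO. For the CT1 and CT2 pair, all 3 active libraries lay above all 3 inactive ones in each core and for both genes. The share of all genes that separated in this way was not counted, and CG5214, which was not called, did so with CT1. No library stood apart from its group among the 16 sets of 6 OA or 6 noOA values of an enzyme that could be examined for this.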

How the results depend on the processing

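Under the alternatives, 317 of 370 counts of called enzymes stayed within 1.5 times their first value, and 287 of 345 log2 fold changes of called enzymes kept their side of the threshold. None of these fold changes changed sign, and no enzyme was called lower in any setting. The 317 include counts that stayed at 0, since 11 of the 20 comparisons had a call in the main fit. The calls of skap and Scsalpha in active CT1 against vehicle OA (16 alternatives) and against inactive CT1 (17 alternatives) held in each, with log2 fold changes from 0.61 to 0.86. Without a filter on low counts, and without any one of the 4 libraries (range 0 to 0), 0 enzymes were called in vehicle OA against vehicle noOA. Leaving out a library gave 1 to 2 calls for active CT2 against vehicle OA, 0 to 1 for active against inactive CT2, and 0 to 1 for CT3 against CT2 in the active against inactive difference. RLE factors, omission of the 18S rRNA row, DESeq2 and a fit of the groups compared each gave 1 call in active CT1 against active CT3, and DESeq2 and a fit of the groups compared gave 1 in active CT3 against active CT2. A fit of the groups compared gave 0 calls for active against inactive CT2 and 0 for the CT3 against CT2 difference.

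Limma on FPKM, in the 3 planned settings, gave 0 calls for active CT2 against vehicle OA, active against inactive CT2, vehicle OA against vehicle noOA, active CT1 against active CT2, OA against noOA, and the CT1 against CT2 and CT3 against CT2 differences, and 1 for active against inactive CT3. Without a filter it gave 0 for active CT3 against vehicle OA. On this scale the median log2 change of all genes tested was shifted, by up to 0.15 in OA against noOA and -0.21 for the difference between OA effects. Centred on each library's median, an alternative chosen after seeing the data, limma gave 0 calls in vehicle OA against vehicle noOA and 0 for the CT3 against CT2 difference, and its other counts equalled those of edgeR.

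Replicate numbers recur between groups, and the labels do not say whether they pair the samples. Correlations of the deviations of libraries with the same number lay between -0.12 and 0.10. With 1 to 6 pairs per comparison, these correlations cannot settle whether the samples were paired. With the replicate block, 1 enzyme was called in inactive CT2 against vehicle OA (Scsalpha, log2 fold change 0.27, adjusted p = 0.0468), 1 in active CT3 against active CT2 (Scsalpha, adjusted p = 0.0496) and 0 in vehicle OA against vehicle noOA (skap, 0.22, adjusted p = 0.0579). The enzymes had 127 to 5887 counts per library, and the 95% intervals hold both counting error and the spread between libraries, whose shares were not separated.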

Other observations

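The 13 other paralogues of the cycle that did not pass the filter on low counts, among them relatives of citrate synthase, aconitase, isocitrate dehydrogenase, succinyl-CoA ligase, fumarase and malate dehydrogenase, had medians of at most 0.774 FPKM over the 36 libraries, the highest for CG4095, a fumarase paralogue. Sucb had a median of 44.5 FPKM, below skap (181 FPKM) and Scsalpha (142.3 FPKM).

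In OA against noOA cells without DMSO, Sucb rose by 0.33 on the log2 scale (edgeR adjusted p = 3.63e-05), and Idh and CG1544 fell by 0.16 (adjusted p = 0.0406) and 0.23 (adjusted p = 0.0276). For CG7430 the value was -0.02, and the succinate dehydrogenase subunits, CG6439 and CG5028 lay between -0.14 (SdhD) and 0.02 (SdhA). Over all genes 6.68% were called higher and 6.92% lower. Of the entry and exit genes, 2 of 9 were called higher, Irp-1B (0.47) and Mdh1 (0.22), and 5 of 9 lower, with the largest difference for ATPCL (-0.45, edgeR adjusted p = 1.04e-08).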
